A study of Mus musculus with 12 samples.

Results

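The genes described here were active in double-negative (DN) mouse thymocytes and strongly reduced once wild-type cells reached the double-positive (DP) stage. They were chosen on the wild-type (WT) arrays alone: the lowest of the 4 WT DN3 and DN4 arrays had to exceed the higher WT DP array by at least 2.5 on the log2 scale, and the WT DN3 and DN4 means had to differ by less than 1. Of 18194 genes on the array, each read from its brightest probe set, 62 met this rule. The question is how fully DP cells of IkL/L mice reduce the same genes. IkL/L is an allele of Ikzf1, the gene of the zinc-finger transcription factor Ikaros, which leaves the mice Ikaros-deficient.

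RNA of sorted thymocytes was hybridised to 12 Affymetrix arrays, in 6 groups of 2: IkL/L DN3, IkL/L DN4, IkL/L DP, WT DN3, WT DN4 and WT DP cells. The labels used here name no treatment, age or strain background. Cells of 3 mice were pooled for each sort, and the labels leave unsaid whether both arrays of a group stem from different pools, so p-values measure the spread between arrays, which may be partly technical. In bulk RNA a smaller number of cells that express a gene and less of its RNA per cell cannot be told apart.

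Thymocytes pass through the DN3 stage, where the T cell receptor beta chain is rearranged, and then through the proliferating DN4 stage to the CD4+ CD8+ DP stage, where most cells stop dividing. DN cells that pass beta-selection switch on the growth programme driven by the transcription factor Myc, which raises ribosome production, nucleotide synthesis and amino acid uptake, and this programme is shut down again in resting DP cells. Ikaros binds DNA with the core TGGGAA and is known for repressing Notch target genes at this same step. TGGGAA is also contained in GTGGGAA, the sequence bound by RBPJ, the DNA-binding partner of Notch.

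Ikzf1 itself was lower in IkL/L than in WT cells by limma with Benjamini-Hochberg adjustment: the difference was -0.70 in DP (adjusted p = 0.00454), -0.65 in DN3 (adjusted p = 0.00911) and -0.63 in DN4 cells (adjusted p = 0.0101). It was not determined whether its probes lie in the altered part of the gene. The 3 IkL/L replicate 2 arrays stood apart from the others in Y-linked genes, with a mean of 3 such genes of 3.07 to 3.45, against 6.59 to 8.36 on the other 9 arrays. The calls in DP cells are therefore also given without these 3 arrays. Since the 2 arrays of each IkL/L group differed in Y-linked signal, they did not come from the same pool of mice, and the pools may differ in sex. For the WT groups it remains unsaid whether the pools differ. The mean of 9 DP markers was 11.80 to 11.89 on IkL/L DP arrays and 11.95 to 12.05 on WT DP arrays. The mean of 7 DN3 markers was 9.32 to 9.59 on IkL/L DP arrays and 8.37 to 8.52 on WT DP arrays. It was 9.13 to 9.47 on IkL/L DN4 and 8.93 to 9.27 on WT DN4 arrays. Rag1 is in both marker lists and raises this mean at the DP stage. It had 13.87 to 13.90 on IkL/L DP and 13.75 to 13.83 on WT DP arrays, against 12.04 to 12.15 on IkL/L DN4 and 11.52 to 11.63 on WT DN4 arrays. The DN3 marker means of DP and DN4 cells are therefore not directly comparable. Il2ra, the surface marker that defines DN3 cells, was below the array median on all 4 DP arrays (4.56 and 5.07 on IkL/L, 4.80 and 5.12 on WT arrays). For gamma-delta T cells, natural killer cells and innate lymphoid cells, the mean of 6 markers was 4.53 to 4.91 on IkL/L DP arrays and 4.64 to 4.74 on WT DP arrays, under the array medians of 5.14 to 5.22. Of the 6, 3 were below the median on both IkL/L DP arrays and 4 on both WT DP arrays. Sox13 was above it on all 4 DP arrays (5.55 and 5.92 on IkL/L, 5.25 and 5.66 on WT arrays). The mean of 7 myeloid markers was 5.10 to 6.13 on IkL/L DN3 arrays against 4.84 to 4.85 on WT DN3 arrays, and 4.47 to 5.20 on IkL/L DN4 arrays against 4.71 to 4.72 on WT DN4 arrays. S100a8, a neutrophil gene, had 8.96 on IkL/L DN3 replicate 1 and 7.09 on IkL/L DN4 replicate 1. These DN arrays enter the IkL/L DN level, and results without each are given with the drops. In DP cells the myeloid mean was 4.54 to 5.04 on IkL/L arrays and 4.72 to 4.75 on WT arrays. S100a8 had 4.68 on IkL/L DP replicate 1 and 6.43 on IkL/L DP replicate 2, against 5.09 and 5.52 on the WT DP arrays.

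The promoters of a few of these genes are printed first, because Myc and Ikaros are each known to bind a particular short sequence. RefSeq windows of 300 bases, from 250 before to 50 after the annotated start (GRCm38.p6), were found for 54 of the 62 genes, in 71 windows since 12 genes have several. Each is read 5′ to 3′ in the direction of the gene. Capitals mark CACGTG, the E box form that Myc and its partner Max bind, and TGGGAA, which reads TTCCCA on the opposite strand. Lap3, a leucine aminopeptidase (chr5:45493124-45493423, plus strand), Pus7, a pseudouridine synthase (chr5:23783662-23783961, minus strand) and Mettl1, a tRNA methyltransferase (chr10:127041682-127041981, plus strand) were chosen because each holds CACGTG close to its start. Gzma, the protease granzyme A (chr13:113100932-113101231, minus strand), is shown because it was among the least reduced genes in IkL/L DP cells, and it holds neither marked sequence.
Lap3: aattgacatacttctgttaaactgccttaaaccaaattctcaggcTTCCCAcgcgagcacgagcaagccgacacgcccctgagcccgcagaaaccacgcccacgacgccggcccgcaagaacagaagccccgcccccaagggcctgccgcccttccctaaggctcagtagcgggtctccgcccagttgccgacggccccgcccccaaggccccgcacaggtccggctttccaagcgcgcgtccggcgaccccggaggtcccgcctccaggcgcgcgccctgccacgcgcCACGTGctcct
Pus7: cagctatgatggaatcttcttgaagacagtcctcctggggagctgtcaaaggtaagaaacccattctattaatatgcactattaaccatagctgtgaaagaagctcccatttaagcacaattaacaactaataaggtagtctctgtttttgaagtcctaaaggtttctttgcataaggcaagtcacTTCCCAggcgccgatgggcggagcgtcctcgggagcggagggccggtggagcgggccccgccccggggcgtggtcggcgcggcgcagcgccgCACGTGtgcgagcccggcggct
Mettl1: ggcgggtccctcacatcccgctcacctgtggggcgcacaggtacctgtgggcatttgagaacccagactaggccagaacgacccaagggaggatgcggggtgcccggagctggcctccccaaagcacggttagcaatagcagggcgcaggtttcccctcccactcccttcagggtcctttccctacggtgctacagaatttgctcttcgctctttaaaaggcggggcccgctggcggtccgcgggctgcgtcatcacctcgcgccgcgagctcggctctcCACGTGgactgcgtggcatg
Gzma: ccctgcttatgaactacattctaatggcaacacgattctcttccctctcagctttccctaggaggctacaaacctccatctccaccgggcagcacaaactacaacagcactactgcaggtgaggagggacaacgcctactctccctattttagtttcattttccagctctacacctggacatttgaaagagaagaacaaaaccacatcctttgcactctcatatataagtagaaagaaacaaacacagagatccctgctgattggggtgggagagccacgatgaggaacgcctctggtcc

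Counted on both strands, TGGGAA stood in 18 of the 71 windows (25.4%), against 25.6% of all 32851 promoter windows. GTGGGAA stood in 3 (4.23%), in Dctd, Lap3 and St6galnac4, against 6.38% of all windows. The general E box CANNTG, which contains CACGTG, stood in 52 (73.2%), against 72.3%. CACGTG stood in 10 windows (14.1%), against 7.15% of all windows. These 10 windows belong to 9 genes: Ipo4, Lap3, Mettl1, Mtm1 with 2 windows, Ppa1, Pus7, Slc25a33, 2010204K13Rik and 3110082I17Rik. CACGTG was added to the search after the values were seen, and a match is a description of the letters, not a binding site.

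IkL/L cells reduced nearly all of these genes at the DP stage, but on the whole less far than WT cells. The drop, defined as the mean of DN3 and DN4 minus DP on the log2 scale, had a median of 2.69 in IkL/L (0.93 to 6.16) and of 3.31 in WT cells (2.65 to 6.30). Since the WT drop chose the genes, it is a description. In IkL/L, whose arrays the rule did not use, 61 of the 62 genes were lower in DP than in DN cells by limma with Benjamini-Hochberg adjustment, which is 98.4% of them, against a background of 28.7% of all 11649 tested genes called lower. The exception was Cd163l1 (difference -1.64, SE 0.75, adjusted p = 0.0932). The 61 called genes had adjusted p-values of at most 0.000754. Cd163l1 was also the one gene for which an IkL/L DP array reached the level of an IkL/L DN array. The other 61 had every IkL/L DP array under every IkL/L DN array (98.4%, background 33.2%). Leaving out IkL/L DN3 replicate 1 or IkL/L DN4 replicate 1, the arrays with the higher myeloid signal, gave 61 genes called lower each time, and without the 3 IkL/L replicate 2 arrays all 62 were called lower.

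**Figure D1:**
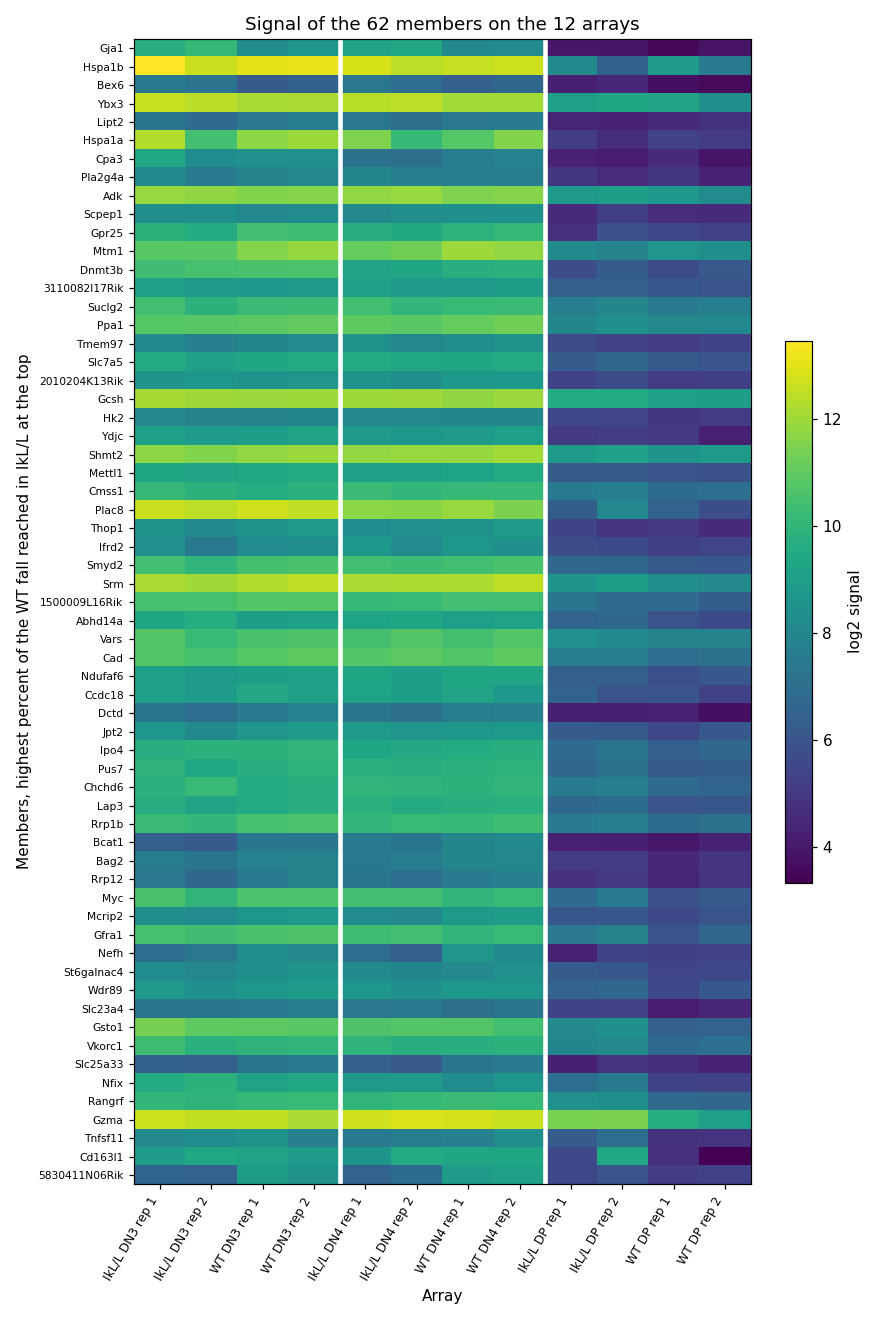
Heat map of the log2 signal of the 62 genes (rows, ordered by the share of the WT drop reached in IkL/L, highest at the top) on the 12 arrays (columns). The DN arrays of both genotypes are bright and the DP arrays dark, and the lowest rows, such as Gzma, Tnfsf11 and Cd163l1, stay brighter on the IkL/L DP arrays than on the WT DP arrays.

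The share of the WT drop that IkL/L cells reached had a median of 81.3% (quartiles 72.4% and 88.5%). It was 80% or more in 37 genes, between 50% and 80% in 20, and under 50% in 5. The 5 were 5830411N06Rik (25.5%), Cd163l1 (31.7%), Tnfsf11 (39.0%), Gzma (39.4%) and Rangrf (46.0%). At the other end, Gja1 (121.8%), Hspa1b (117.5%) and Bex6 (104.0%) dropped further in IkL/L than in WT cells. With IkL/L replicate 1 arrays alone the median was 85.0%, and with replicate 2 alone 76.3%. It was 79.97% without IkL/L DN3 replicate 1 and 81.5% without IkL/L DN4 replicate 1.

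A share near 80% was not particular to these genes. Over the 1637 tested genes with a WT drop of at least 1 the median share was 78.8%, and over the 1027 genes with a WT increase of at least 1 it was 80.5%. The rule turned round, for genes low in WT DN and high in WT DP cells, found 50 genes, with a median of 80.3% of the WT increase reached in IkL/L. Choosing on one genotype favours large steps in that genotype, so the rule was also applied to the IkL/L arrays. It then found 22 genes, whose WT drop was a median of 109.8% of the IkL/L drop (82.1% to 124.3%), and 18 of the 22 dropped at least as far in WT as in IkL/L cells. Of the 62 genes, 23 kept a gap of 2.5 or more on the IkL/L arrays (background 0.258%) and 21 met the whole rule there (33.9% of the 62; background 0.189%), so 95.5% of the 22 IkL/L-chosen genes are among the 62. Of the 41 others, 39 fell short of the gap, and 2 missed the limit between DN3 and DN4 alone.

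**Figure D2:**
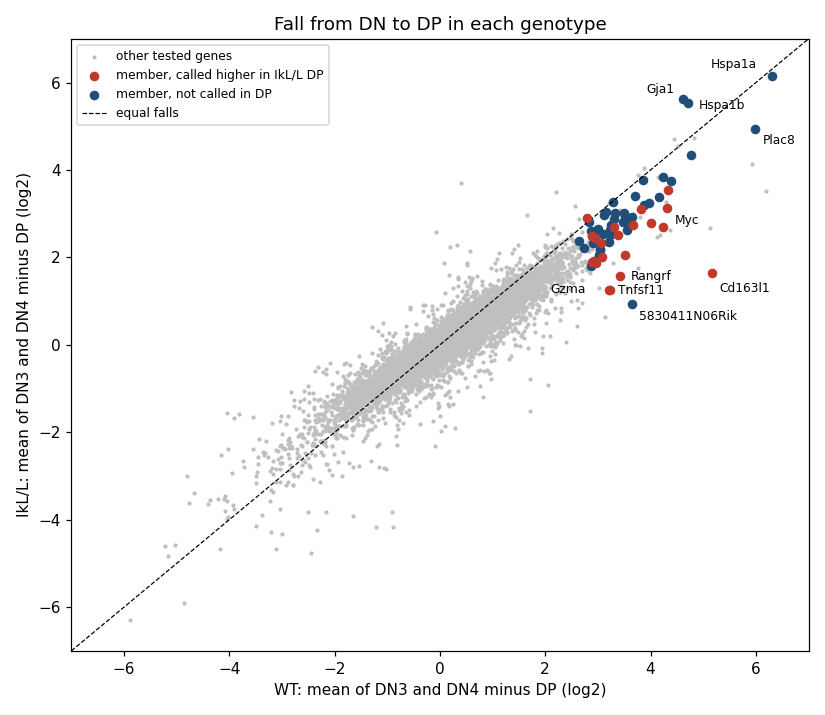
Drop from DN to DP (mean of DN3 and DN4 minus DP, log2) in IkL/L (vertical axis) against WT cells (horizontal axis), 1 point per gene. The 62 genes have WT drops of 2.65 to 6.30 by selection. Most lie under the dashed line of equal drops, Gzma, Tnfsf11, Cd163l1, Rangrf and 5830411N06Rik the furthest, and Gja1 and Hspa1b lie above it.

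In DP cells, 21 of the 62 genes were higher in IkL/L than in WT and none was lower, by limma with Benjamini-Hochberg adjustment (33.9% called higher, against 4.36% of all tested genes; background 1.62% lower). At an unadjusted p under 0.05 there were 37, of which 1 was lower. The WT DP arrays helped choose the genes for their low values, so this comparison is not independent of the rule. The median difference was 0.44, a 1.35-fold higher level, against 0.03 over all tested genes. The IkL/L mean was above the WT mean for 55 genes (88.7%, background 54.4%). Both IkL/L arrays lay above both WT arrays for 39 genes (62.9%, background 26%) and below both for 2 (background 18%). Each IkL/L array showed it, replicate 1 with a median of 0.39 above the WT DP mean and replicate 2 with 0.51. Without the 3 IkL/L replicate 2 arrays, 11 genes were called higher, all among the 21, and 1 lower (Nefh, difference -0.93, adjusted p = 0.0377). The 11 were Gzma, Nfix, Gsto1, Tnfsf11, Rangrf, Myc, Vkorc1, Slc23a4, Chchd6, Abhd14a and Lap3. The other 10 kept a higher mean in IkL/L and lost the call: Gfra1 (adjusted p = 0.0542), St6galnac4 (0.0571), Cd163l1 (0.0691), Smyd2 (0.111), Wdr89 (0.13), Cad (0.137), Bex6 (0.152), Gcsh (0.16), Cmss1 (0.161) and Rrp1b (0.163). The count also fell with array weights (13) and in a fit of the 4 DP arrays alone (10). With probe sets averaged per gene it was 16, and the median difference was 0.38.

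Genes with smaller WT gaps are given for comparison. Among 91 genes that met the rule except for a WT gap between 2.0 and 2.5, 20 were called higher in IkL/L DP cells (22%) and 0 lower, with a median difference of 0.35 and a median share of 78.6% of the WT drop. Among the other 1575 tested genes with a WT drop of at least 1, 192 were higher (12.2%) and 8 lower (0.508%), with a median difference of 0.24. The groups were formed with the WT DP arrays that also enter the comparison, and a larger gap favours low WT DP values, so an order among these groups is partly built in and is not a result.

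**Figure D3:**
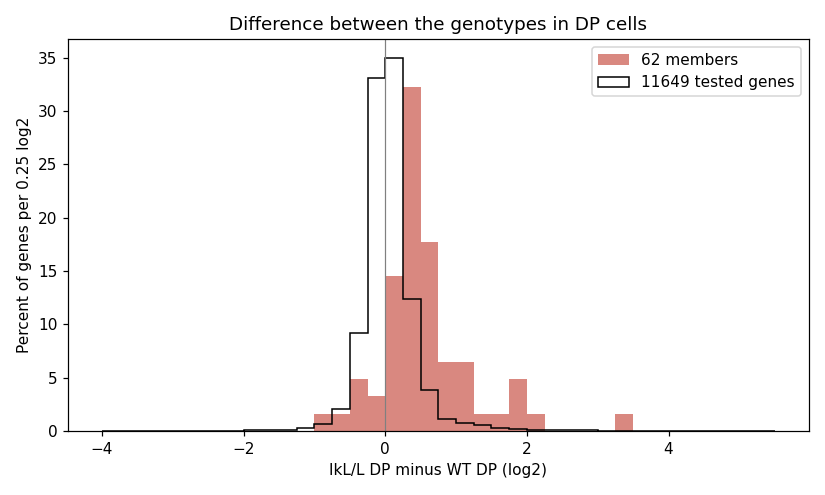
Distribution of the difference between IkL/L DP and WT DP (log2) for the 62 genes and for all 11649 tested genes, as percent of genes per 0.25 log2. The 62 genes are centred at a median of 0.44 and all tested genes at 0.03, and the right tail of the 62 reaches 3.45.

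The effector, receptor and membrane genes ranged from equal levels to the 2 largest differences between IkL/L DP and WT DP cells, those of Cd163l1 and Gzma. Gzma encodes granzyme A, a protease of cytotoxic granules. It had 11.41 and 11.46 on the IkL/L DP arrays, against 9.61 and 9.04 on the WT DP arrays, with 12.16 to 12.89 on the 8 DN arrays of both genotypes. The groups did not overlap, and the IkL/L DP level was closer to that of DN cells than to that of WT DP cells (difference 2.11, SE 0.19, adjusted p = 3.74e-05). The other cytotoxic and innate T genes of a list did not move with it as a group: of 13 tested, Gzma and Tbx21 (0.85) were called higher and Prf1, the gene of perforin, lower (-0.79), with a list median of 0.08 against 0.03 over all tested genes.

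Tnfsf11 encodes RANKL, a cytokine of the tumour necrosis factor family through which thymocytes act on medullary epithelium. Its signal was 6.23 and 6.96 on the IkL/L DP arrays, against 4.83 and 4.85 on the WT DP arrays, where it was below the array median. The IkL/L arrays lay above the WT arrays (difference 1.76, SE 0.27, adjusted p = 0.00201) and still under the IkL/L DN arrays at 7.49 to 8.24. Gfra1, a receptor for the growth factor GDNF, had 7.35 and 7.84 on the IkL/L DP arrays, against 5.97 and 6.67 on the WT DP arrays (difference 1.28, SE 0.22, adjusted p = 0.00348). Its 2 other probe sets, which are dimmer, gave differences of 0.30 and 0.27, and the call was lost without the IkL/L replicate 2 arrays (difference 1.03, adjusted p = 0.0542), with the mean of its probe sets (0.62, adjusted p = 0.079) and in a fit of the 4 DP arrays alone (adjusted p = 0.0565). Slc23a4, a member of the nucleobase and ascorbate transporter family, had 5.38 and 5.31 in IkL/L DP against 4.09 and 4.41 in WT DP cells (difference 1.09, SE 0.14, adjusted p = 0.000499), so a signal just above the array median in IkL/L faced one below it in WT cells.

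Cd163l1 and 5830411N06Rik, named Scart1 and Scart2 in RefSeq synonyms, encode scavenger receptors known from gamma-delta T cells. Cd163l1 had 5.56 and 9.35 on the IkL/L DP arrays, against 4.68 and 3.33 on the WT DP arrays. Replicate 2 was at the level of DN cells (8.56 to 9.51) and replicate 1 was not, and this gap of 3.80 was the largest between IkL/L DP arrays among the 62 genes. The difference of 3.45 (SE 0.87, adjusted p = 0.0369) therefore rests on that array: without it the difference was 1.55 and was not called, and removing any of 7 arrays ended the call, with adjusted p up to 0.168. A second probe set of Cd163l1 gave 1.37, and with the mean of its probe sets the call was lost (2.41, adjusted p = 0.056). 5830411N06Rik had 5.49 and 5.95 in IkL/L DP and 5.15 and 5.34 in WT DP cells (difference 0.47, adjusted p = 0.216). Its low share of the WT drop came from the start of the step: it was at 6.52 to 6.89 on the IkL/L DN arrays, against 8.53 to 9.13 on the WT DN arrays, and was called lower in both DN3 (-2.20, adjusted p = 4.82e-05) and DN4 cells (-2.29, adjusted p = 3.38e-05).

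Other membrane genes were silenced as far in IkL/L as in WT cells, or their arrays disagreed. Gja1, the gap junction protein connexin 43, had 3.98 and 3.93 in IkL/L DP and 3.56 and 3.86 in WT DP cells, although it started higher in IkL/L, at 9.23 to 10.05 on IkL/L DN arrays against 8.18 to 8.65 on WT DN arrays. The DN difference was called in DN3 (1.40, adjusted p = 0.000474) and in DN4 cells (1.11, adjusted p = 0.00267). Cpa3, carboxypeptidase A3, a protease of mast cells and early progenitors, and Gpr25, an orphan receptor, differed by -0.03 and -0.11 in DP cells, with adjusted p = 0.979 and 0.896. Plac8, a small cysteine-rich protein, had 6.33 and 8.02 in IkL/L DP against 6.54 and 5.76 in WT DP cells, so IkL/L replicate 1 lay between the WT arrays (difference 1.02, adjusted p = 0.207). In this group of 10 genes, 5 were called higher in DP cells, and the median share of the WT drop was 67.2%.

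**Figure D4:**
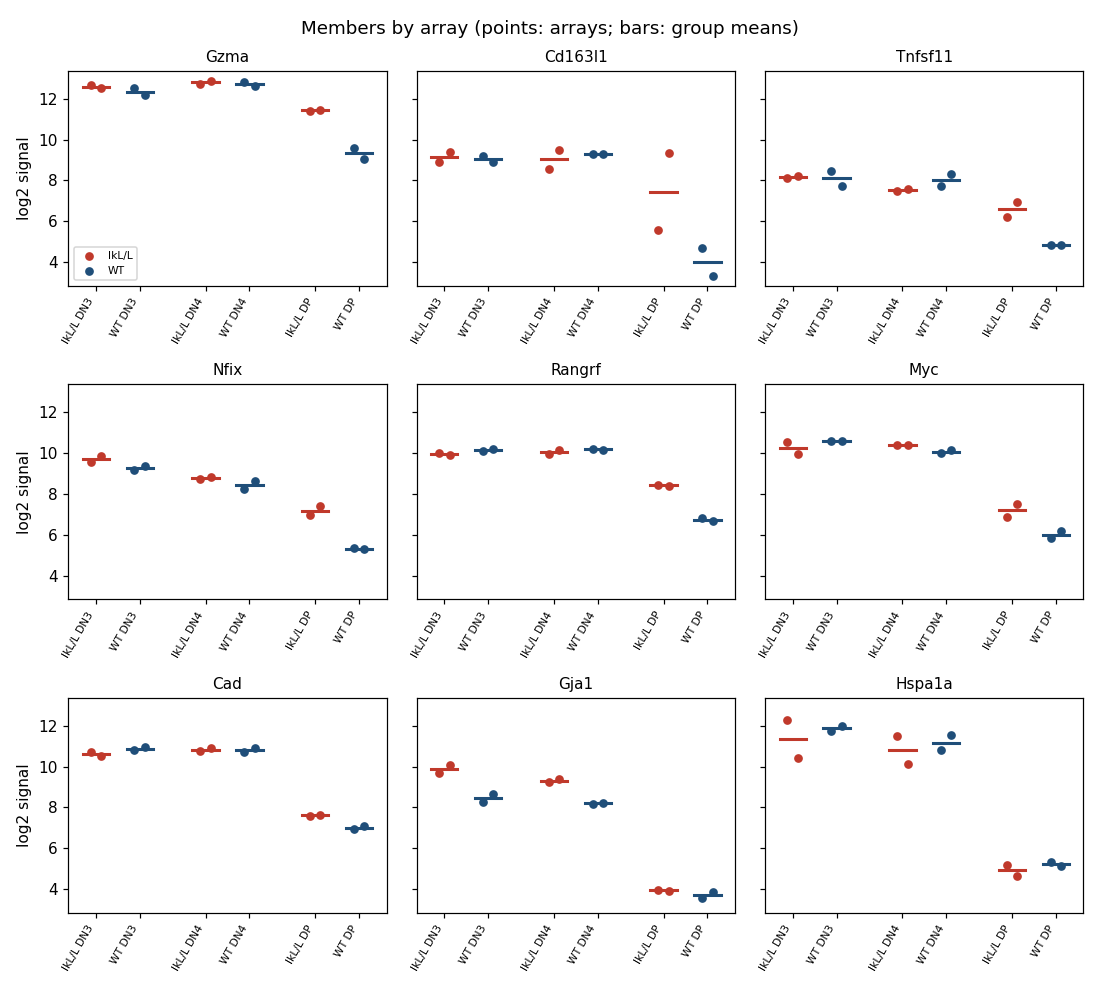
Log2 signal of selected genes on each array (points) with group means (bars), for IkL/L and WT DN3, DN4 and DP cells, IkL/L left of WT at each stage. Gzma, Rangrf and Nfix lie higher on both IkL/L DP arrays than on both WT DP arrays, and the IkL/L DP arrays of Cd163l1 lie 3.80 apart.

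Among regulators of transcription and chromatin, 3 of 4 were called higher in IkL/L DP cells. Nfix, a transcription factor of the nuclear factor I family, had 6.97 and 7.41 in IkL/L DP cells, against 5.37 and 5.29 in WT DP cells. The groups did not overlap (difference 1.86, SE 0.18, adjusted p = 6.83e-05), and 2 more bright probe sets of Nfix gave 1.02 and 1.28. Myc, which drives growth and ribosome production, had 6.87 and 7.52 in IkL/L DP against 5.82 and 6.20 in WT DP cells, with 9.94 to 10.59 on the 8 DN arrays. IkL/L DP cells thus kept more Myc RNA than WT DP cells (difference 1.18, SE 0.23, adjusted p = 0.00871), at 72.3% of the WT drop. That call was lost without IkL/L DP replicate 2 or without WT DP replicate 1, with adjusted p up to 0.0887. Smyd2, a lysine methyltransferase, differed by 0.58 (adjusted p = 0.0444), a call that removing any of 10 arrays ended. Dnmt3b, a de novo DNA methyltransferase, had 5.71 and 6.27 in IkL/L DP and 5.69 and 6.14 in WT DP cells (difference 0.08, adjusted p = 0.895), and reached 90.7% of the WT drop.

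The 11 genes of ribosome, tRNA and RNA handling all had a higher mean in IkL/L DP than in WT DP cells, by 0.27 to 1.68, and 4 were called. Rangrf, a factor that binds the nuclear transport GTPase Ran, had 8.45 and 8.39 in IkL/L DP against 6.80 and 6.68 in WT DP cells. This difference of 1.68 (SE 0.12) had the lowest adjusted p of the 62 genes in DP cells (9.37e-06), while the DN arrays of both genotypes lay together at 9.91 to 10.22. Wdr89, a WD-repeat protein, differed by 0.84 (adjusted p = 0.0277), Cmss1, a ribosome small subunit factor, by 0.63 (adjusted p = 0.0227) and Rrp1b, a nucleolar ribosome processing factor, by 0.60 (adjusted p = 0.0243). Other bright probe sets differed less, by 0.10 for Cmss1 and by 0.24 and 0.23 for Rrp1b. With the mean of the probe sets both calls were lost (Cmss1 0.25, adjusted p = 0.319, and Rrp1b 0.35, adjusted p = 0.17). The promoter genes Pus7 and Mettl1 showed 0.68 (adjusted p = 0.0517) and 0.33 (adjusted p = 0.208). Other bright probe sets of Mettl1 gave -0.07 and 0.52. Rrp12, which acts in export of ribosomal subunits, differed by 0.27 (adjusted p = 0.624), the importin Ipo4 by 0.52 (adjusted p = 0.104) and Vars, the valyl-tRNA synthetase, by 0.45 (adjusted p = 0.234). The median share of the WT drop in this group was 77.7%.

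The 12 genes of nucleotide, polyamine, one-carbon and amino acid metabolism showed the same sign in each member and small sizes, 0.06 to 0.79, with 3 called. Lap3, whose promoter is printed above, had 6.73 and 6.89 in IkL/L DP against 6.01 and 6.04 in WT DP cells (difference 0.79, SE 0.16, adjusted p = 0.00975). Cad, the enzyme that starts pyrimidine synthesis, had 7.58 and 7.65 in IkL/L DP against 6.94 and 7.09 in WT DP cells (difference 0.60, SE 0.14, adjusted p = 0.0228). Its arrays did not overlap, but its second strongly dropping probe set differed by 0.26. With the mean of its probe sets the call was lost (0.29, adjusted p = 0.274). Gcsh, of the glycine cleavage system, differed by 0.52 (adjusted p = 0.0252). Srm, spermidine synthase, had 8.56 and 8.98 in IkL/L DP against 8.32 and 8.10 in WT DP cells, and began among the highest signals, at 12.03 to 12.50 on the 8 DN arrays. Its difference of 0.56 missed the threshold (adjusted p = 0.0834). The mitochondrial serine enzyme Shmt2 (0.33, adjusted p = 0.239), the amino acid transporter Slc7a5 (0.39, adjusted p = 0.284) and the adenosine kinase gene Adk (0.41, adjusted p = 0.208) also missed it. Bcat1, a branched-chain aminotransferase, and Slc25a33, a mitochondrial pyrimidine carrier, were close to equal in DP cells (0.11 and 0.06), while both were called lower in IkL/L DN3 cells (-1.03 and -0.90) and DN4 cells (-0.61 and -1.14).

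Energy and mitochondrial genes reached a median of 87.5% of the WT drop, and 1 of 6 was called. Chchd6, of the mitochondrial inner membrane contact site complex, had 7.52 and 7.74 in IkL/L DP against 6.86 and 6.59 in WT DP cells (difference 0.90, SE 0.16, adjusted p = 0.00431). Its call was lost without IkL/L DP replicate 2 (adjusted p = 0.0503). The other bright probe set of Chchd6 differed by 0.35 in DP cells. Hk2, the hexokinase of growing cells, had 5.51 and 5.43 in IkL/L DP and 4.98 and 5.11 in WT DP cells, and the groups did not overlap, but the difference of 0.43 missed the threshold (adjusted p = 0.0664). Suclg2, a subunit of succinyl-CoA ligase, differed by 0.22 (adjusted p = 0.63) and Ppa1, the cytosolic pyrophosphatase, by 0.14 (adjusted p = 0.718).

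Of 7 lipid, redox and other enzymes, 4 were called higher. Gsto1, an omega class glutathione transferase, had 8.10 and 8.39 in IkL/L DP against 6.44 and 6.53 in WT DP cells, with no overlap (difference 1.77, SE 0.17, adjusted p = 6.83e-05), and its second probe set gave 1.78. Vkorc1, the vitamin K epoxide reductase, had 7.98 and 8.10 in IkL/L DP against 6.78 and 7.03 in WT DP cells (difference 1.14, SE 0.18, adjusted p = 0.00205). Abhd14a, an alpha/beta hydrolase, differed by 0.90 (adjusted p = 0.0034), but its other bright probe set differed by 0.06 and reached 96.5% of the WT drop. St6galnac4, a sialyltransferase, differed by 0.70 (adjusted p = 0.0209) and by 0.33 in its other probe set. With the mean of its probe sets the St6galnac4 call was lost (0.52, adjusted p = 0.107). Mtm1, the phosphoinositide phosphatase myotubularin, went the other way, with 8.13 and 7.85 in IkL/L DP and 8.63 and 8.36 in WT DP cells. It was not called in DP (-0.51, adjusted p = 0.0881) and was called lower in DN3 (-0.86, adjusted p = 0.0072) and DN4 cells (-0.76, adjusted p = 0.0139).

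None of the 3 chaperone genes was called in DP cells, and Hspa1a had the largest drop of the 62 genes in both genotypes. Hspa1b, an inducible Hsp70, had 8.17 and 6.47 in IkL/L DP and 8.83 and 7.45 in WT DP cells, so its arrays overlapped, and it had the highest DN signal of the 62 genes (12.46 to 13.46). Hspa1a had 5.19 and 4.65 in IkL/L DP and 5.32 and 5.12 in WT DP cells, against 10.11 to 12.29 in IkL/L DN and 10.80 to 11.99 in WT DN cells. Its drop was 6.16 in IkL/L and 6.30 in WT cells. Hspa1a and Hspa1b are near-identical copies, so their probe sets may share signal and are not separate evidence. Bag2, a co-chaperone of Hsp70, had 5.13 and 5.08 in IkL/L DP against 4.51 and 4.91 in WT DP cells (difference 0.40, adjusted p = 0.206).

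Of the 9 other or little characterised genes, only Bex6, of the brain-expressed X-linked family, was called higher in DP cells (difference 0.70, SE 0.17, adjusted p = 0.0329). It had 4.23 and 4.48 in IkL/L DP and 3.72 and 3.59 in WT DP cells, all below the array median, and it was also higher in IkL/L DN3 cells (1.01, adjusted p = 0.00496), so its share of the WT drop was 104.0%. Nefh, a neurofilament subunit, had 4.35 and 5.41 in IkL/L DP and 5.25 and 5.30 in WT DP cells, and was called lower in IkL/L DN4 cells (-1.70, adjusted p = 0.00596). Mcrip2 was also lower there (-0.73, adjusted p = 0.012).

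The calls differed in how far they depended on a single array. Of the 21, 9 held when any 1 of the 12 arrays was left out: Gzma, Nfix, Gsto1, Tnfsf11, Rangrf, Gfra1, Vkorc1, Slc23a4 and Abhd14a. Of these 9, Gfra1 lost the call when all 3 IkL/L replicate 2 arrays were left out. The other 12 lost the call without at least 1 array. The 2 IkL/L DP arrays differed by more than 1 for 5 genes and the 2 WT DP arrays for 2, with median absolute differences of 0.25 and 0.26. Abhd14a held in its brightest probe set, while its other bright probe set differed by 0.06. Other probe sets of the same genes were not used by the rule, but they came from the same arrays. They were kept here for a high WT DN signal and a WT drop, which also favours low WT DP values, so they are not independent support. Of 30 that were bright in WT DN cells and dropped by more than 1 in WT, 25 had a higher mean in IkL/L DP than in WT DP cells, with a median difference of 0.23 and a median share of 79.1%. Another 4, of Bcat1, Cad, Scpep1 and Thop1, dropped by 1 or less in WT and differed by -0.12, 0.01, 0.03 and -0.21 in DP cells.

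For most genes the larger part of the smaller drop in IkL/L lay at the DP end, but the rule bears on this split. It asked for high WT DN and low WT DP values, which favours IkL/L values below WT in DN and above WT in DP cells. The split is therefore a description. The shortfall, the WT drop minus the IkL/L drop, had a median of 0.67 and was above 0 in 59 genes. Its larger part was a higher DP level in 44 of these and a lower DN level in 15. In DN cells the median difference between IkL/L and WT was -0.14 (19 genes above and 43 below 0). In DN3 cells 2 genes were called higher (Gja1 and Bex6; background 2.08%) and 4 lower (5830411N06Rik, Bcat1, Mtm1 and Slc25a33; background 2.21%). In DN4 cells 1 was higher (Gja1; background 4.4%) and 6 lower (5830411N06Rik, Bcat1, Mtm1, Slc25a33, Mcrip2 and Nefh; background 2.48%). Leaving out 1 of the 4 DN4 arrays lowered the DN4 count to between 2 and 4.

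**Figure D5:**
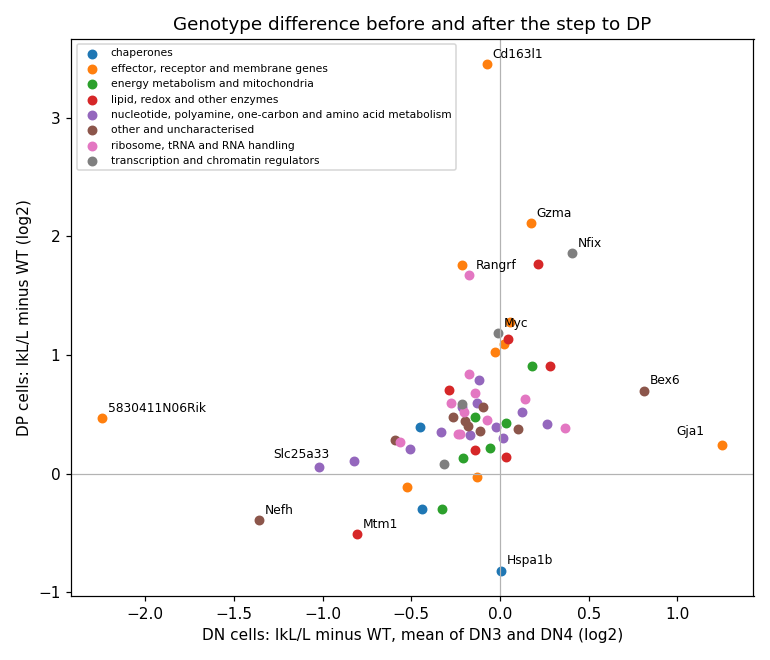
Difference between IkL/L and WT in DP cells (vertical axis, log2) against the difference in DN cells (horizontal axis, mean of DN3 and DN4, log2) for the 62 genes. Most genes lie near 0 on the horizontal axis and above 0 on the vertical one, Cd163l1 and Gzma the highest, with 5830411N06Rik at the far left and Gja1 at the far right.

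Silencing can also be read against the level of the array. On both WT DP arrays, 17 of the 62 genes lay below the array median. Of these 17, Cd163l1, Tnfsf11, Slc23a4 and Hk2 were above the median on both IkL/L DP arrays, 11 were below it on both, and 2 were below it on 1 array. For none of the 62 genes did both IkL/L DP arrays exceed all 4 WT DN arrays.

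Lists of related genes are given beside the values over all tested genes in DP cells, 4.36% called higher, 1.62% lower and a median of 0.03. Of 25 tested Myc targets and ribosome biogenesis genes, 4 were called higher in IkL/L DP (Myc, Npm1, Cad and Odc1) and Wdr12 was lower (-0.48), with a list median of 0.29 and 21 of 25 above 0. This list holds 3 of the 62 genes, Myc and Cad among them, which the rule chose for low WT DP values. In the IkL/L step from DN to DP, where 28.7% of all tested genes were lower, 24 of the 25 fell, with a list median of -1.63. Of 26 metabolism and transport genes, 3 were higher (Scd1 1.68, Slc16a1 0.63 and Slc7a1 0.59) and Pdk1 was lower (-0.59), with a list median of 0.24. Of 31 cell cycle and replication genes, 2 were higher (Cdkn1a 1.24 and Cdk6 0.92), a share near that over all tested genes, with a list median of 0.31, and 24 fell in the IkL/L step. Of 28 Notch pathway genes, 6 were called higher in IkL/L DP, Dtx1 (2.53), Ptcra (1.63), Notch1 (1.50), Igf1r (1.37), Myc (1.18) and Notch3 (0.83), while the list median was 0.03. Myc, counted in both lists, is the only one of these 6 among the 62 genes. Of 7 DN3 markers, 4 were called higher in IkL/L DP cells, with a list median of 0.83. The interferon and antigen presentation list, which holds none of the 62 genes, had 5 of 19 higher (Ifitm3 2.10, H2-Ab1 1.38, H2-K1 1.20, Psmb9 0.70 and Oas1a 0.67) and Irf8 lower (-0.65), with a list median of 0.45. Actin and cytoskeleton genes had 2 of 26 higher and 6 lower (median -0.03), and surface adhesion and migration genes 2 of 22 higher and 1 lower (median -0.09). Survival and death genes had 2 of 15 higher and 0 lower (median -0.09), and T cell receptor signalling genes 1 of 27 higher and 2 lower (median -0.04). Cytokine receptor genes had 2 of 23 higher and 1 lower (median 0.04), early T progenitor regulators 1 of 20 higher and 1 lower (median 0.08), and other transcription and chromatin genes 3 of 42 higher and 1 lower (median 0.09). Whether the composition of the sorted DP cells or their division had a part in the result was not tested.

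The rule has a threshold, and genes lay close to it on both sides. Just inside were Suclg2, Bex6 and Jpt2, with WT gaps of 2.5008, 2.5023 and 2.5048 and shares of 89.6%, 104.0% and 79.9%. Just outside were Mthfd1, Ppic and Alad, with gaps of 2.4896, 2.4857 and 2.471 and shares of 88.5%, 57.3% and 69.5%. Ppic, a cyclophilin, differed by 4.17 in DP cells, more than any of the 62 genes. By limma it was also called higher in IkL/L DN3 (2.504, adjusted p = 7.36e-05) and DN4 cells (3.016, adjusted p = 1.93e-05). Its difference was thus not confined to the DP stage.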

How the data were processed

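RNA of 12 sorted thymocyte samples was measured on Affymetrix arrays. The values deposited by the authors are log2 signals per probe set, made with RMA per the submitters' processing notes, version and build not given in the sources used here. RMA corrects background, quantile normalizes and summarises probes. Per the labels' protocols, RNA was labelled with 2 rounds of amplification in several labelling series with different RNA amounts. The series are not assigned to samples, so that batch was not tested. Array signal has no read depth, so precision is limited by the number of arrays, and genes near the floor cannot show a further drop. Values ran from 2.68 to 14.7.

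Of 45099 probe sets, 34958 carried 1 gene symbol in the platform annotation, 932 several and 9209 none. Each gene was read from its brightest probe set, by the mean of the 12 arrays, and all 62 symbols matched RefSeq (GRCm38.p6). The 11649 genes that reached the array median on 2 or more arrays (all 62 among them) were fitted in R 4.3.3 using limma 3.58.1, with statmod 1.5.0 behind the random block, 1 mean per group over 12 arrays, with Benjamini-Hochberg adjustment over all tested genes and a threshold of 0.05. All 62 also passed the filter on IkL/L arrays alone. The script was tested on simulated data.

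The members, lists and tests were chosen with earlier results of these data known. Genes were named by a rule: called members up to the 14 largest differences, the 8 smallest differences in DP cells, the 4 highest WT DN levels, members of a list, and genes at the threshold. The role groups, and the other members named, were chosen after their values were seen. Replicate numbers did not pair the arrays across genotypes: deviations of same-numbered arrays from their group means correlated at -0.338 to 0.0624 between IkL/L and WT groups (9 pairs). Between stages of 1 genotype they correlated at 0.0149 to 0.494 (6 pairs, 3 of IkL/L and 3 of WT), so a number ties arrays within a genotype to some extent, and a random block for it was among the alternatives.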

Additional observations from a re-analysis of the deposited data

Results flagged for a closer look

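For 5 genes every IkL/L array lay below every WT array in DN3 and in DN4 cells and above every WT array in DP cells. The rule favours this order, since it chose genes high in WT DN and low in WT DP cells. The share of all tested genes with this order was not counted. This opposite order was not tested as a difference between stages, and most of the single differences were not called. In DP cells IkL/L exceeded WT by 1.68 for Rangrf, 0.47 for 5830411N06Rik, 0.40 for Bag2, 0.33 for Mettl1 and 0.28 for Mcrip2. Other bright probe sets of Mettl1 gave -0.07 and 0.52 in DP cells. Rangrf was called in DP cells and in neither DN stage, 5830411N06Rik was called lower in both DN stages, and Mcrip2 was called lower in DN4 cells.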

How the results depend on the processing

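The count of 21 genes higher in IkL/L DP cells became 16 when probe sets were averaged per gene and 13 with array weights. It was 10 in a fit of the 4 DP arrays alone, and 10 when a log2 difference of at least 1 was also required. It ran from 9 to 22 when 1 array was left out (9 without IkL/L DP replicate 2). Without all 3 IkL/L replicate 2 arrays it was 11, and the count of lower genes, 0 otherwise, was 1. The 7 DN4 calls became 13 in a fit of the DN4 arrays alone and 4 with the minimum difference, and ran from 2 to 8 with 1 array left out. A gap of 2.0 gave 153 genes and a gap of 3.0 gave 30. With the replicate number as a fixed replicate block, 21 genes were higher in DP cells and 0 lower, and 61 were lower in the IkL/L step, and with a random replicate block within genotype these counts were also 21, 0 and 61. The median share of the WT drop ran from 79.7% to 83.0% when 1 array was left out, and was 85.0% with IkL/L replicate 1 arrays alone and 76.3% with IkL/L replicate 2 arrays alone, and the median difference in DP cells from 0.39 to 0.51. Of 1423 values of named genes under alternatives, 1305 kept direction and side of the threshold, 82 lost the call, 14 gained it and 22 changed sign. The changes of sign concerned 12 genes that were not called, whose difference in DP cells with 1 array, or the 3 IkL/L replicate 2 arrays, left out ran from -0.0489 to 0.26 for Bcat1, -0.36 to 0.30 for Cpa3, -0.0609 to 0.47 for Dctd, -0.20 to 0.36 for Dnmt3b, -0.67 to 0.45 for Gpr25, -1.67 to 0.0323 for Hspa1b, -0.93 to 0.14 for Nefh, -0.14 to 0.43 for Pla2g4a, -0.0661 to 0.34 for Ppa1, -0.018 to 0.61 for Scpep1, -0.27 to 0.38 for Slc25a33 and -0.0345 to 0.80 for Ybx3. The cause of these changes was not tested. Each group has 2 arrays, and a gene at the array floor bounds its own drop.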
